A study of Mus musculus with 2 samples.

Results

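The genes described here are 10 genes of DNA replication: Mcm2, Mcm3, Mcm4, Mcm5, Mcm6 and Mcm7, the loading factor Cdc6, the helicase cofactor Cdc45, the sliding clamp gene Pcna and the flap nuclease gene Fen1. They were chosen by name, as the probe sets whose platform symbol is one of these genes, and they make up 10 of the 8251 genes with a single symbol on the array. Of the 12 probe sets found, Mcm3 and Mcm5 had 2 each and the other genes 1 each. The RNA came from 2 mouse mesoangioblast clones, D16 and D351, with 1 array for each. Mesoangioblasts are vessel-associated progenitors with mesodermal potential. Both clones were derived from the dorsal aorta of C57BL6 embryos at day 9.5 of gestation, by 5 days of explant culture, limiting dilution over fibroblast feeders stopped from dividing with mitomycin C, growth in RPMI with 20% fetal calf serum, and expansion on gelatin. Each group is thus 1 clone and 1 array, no allele or agent distinguishes the clones in the labels, and no control sample exists. A difference between the arrays may belong to the clone, the culture or the array, and these cannot be told apart. No test or error between samples was possible.

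Before a cell copies its DNA, the origin recognition complex, Cdc6 and Cdt1 load the ring of the Mcm2, Mcm3, Mcm4, Mcm5, Mcm6 and Mcm7 proteins onto origins during G1 phase, a step called licensing. Cdc45 and the GINS complex then turn the loaded ring into the active helicase, the Pcna ring tethers the polymerases, and Fen1 trims the flaps of Okazaki fragments. Genes of this machinery are transcribed mostly in cycling cells, many of them as targets of the E2F transcription factors, and licensing genes are commonly used as markers of proliferation.

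Values are probe set intensities. Both arrays were scaled to the same median over gene probe sets at or above an intensity floor in both. The floor was 17.4 (the 40th percentile), and intensities below it were not read as a level. Ratios are log2 values with D351 as numerator and D16 as denominator, so negative ratios mean higher in D16. A gene at least 2-fold apart (a log2 ratio of 1 or beyond in size) is called toward the clone where it was higher. On the U74A arrays, 60.7% of gene probe sets in D16 and 59.3% in D351 lay at or above the floor. Probe sets of one gene differed in their log2 ratio with an SD of 0.52 (806 genes), which is the part of the error these arrays can show. Intensities of different probe sets are not on a common scale, so genes are compared by their ratios and not by their levels.

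The replication genes had lower levels in D351 than in D16. All 9 members that could be measured had a negative log2 ratio, from -1.72 for Cdc6 to -0.90 for Pcna, with a median of -1.23, beside a median of -0.03 over the 6098 measured genes. Of the 9, 7 were called toward D16 and 0 toward D351. The background shares were 8.87% of all measured genes toward D16 (541 genes) and 10.6% toward D351 (645 genes). Among the 3687 genes in the same range of mean intensity (48.4 to 491), 9.87% were called toward D16. When the 9 hybridization control probe sets set the scale instead, the median of all genes moved to 0.34, and 250 genes were called toward D16 (4.10%) against 1214 toward D351. The count of members toward D16 was then 2 in place of 7, and their median -0.83. All 9 were still negative, and the distance between the members' median and that of all genes was -1.17 against -1.20. In RNA of a whole culture, fewer cells that transcribe a gene and less RNA per cell cannot be told apart.

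**Figure D1:**
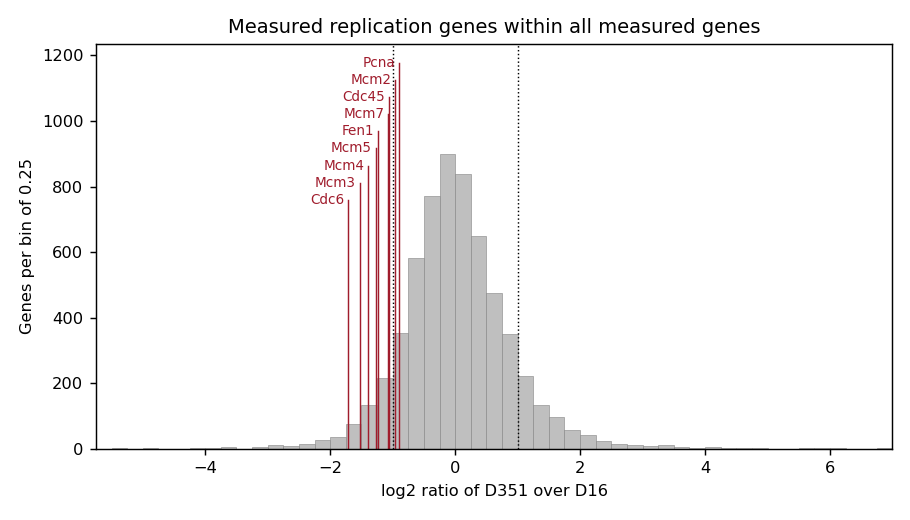
Histogram of the log2 ratio of D351 over D16 for 6098 measured genes (grey bars, genes per bin of 0.25), with a red line for each of the 9 measured replication genes and dotted lines at 2-fold; line height only separates the names. All 9 red lines lie on the left side, between -1.72 and -0.90.

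Of the ring subunits, Mcm2 (probe set 93112_at) measured 234 in D16 and 121 in D351, 1.94-fold higher in D16 and just short of the 2-fold limit. Mcm3 measured 352 and 121 by its brighter probe set and 148 and 65.4 by the other. The brighter one, 160496_s_at, is of a kind that can match transcripts of other genes. Both gave the same direction, 2.90-fold and 2.26-fold higher in D16, and their log2 ratios of -1.53 and -1.18 lay closer together than the probe set SD. Mcm4 measured 252 in D16 and 96.0 in D351, 2.62-fold higher in D16. Mcm5 measured 454 and 188, 2.41-fold higher in D16. A second Mcm5 probe set, 162102_r_at, was close to the floor, at 19.7 in D16 and 12.3 in D351. It gives only a bound of at least 1.13-fold, in the same direction. Mcm7 measured 374 and 178, 2.10-fold higher in D16. The 5 measured subunits thus ran between log2 ratios of -1.53 and -0.96 (SD 0.23 across subunits), a spread smaller than that between probe sets of one gene, so no subunit stands out from the others by these data.

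Mcm6 was the exception in level. Its single probe set, 100149_at, read 2.85 in D16 and 4.07 in D351, below the floor in both arrays, so it has no ratio. The protein works only together with the other subunits, all of which were measured at 5.52 times the floor or more in both clones by their brighter probe sets. A reading below the floor gives no level for the transcript, and the sensitivity of this probe set was not tested.

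Cdc6, the ATPase that recruits the ring to origins, had the widest difference of the members. It measured 162 in D16 and 49.1 in D351, 3.30-fold higher in D16, and only 122 of the 6098 measured genes had a lower ratio. Cdc45, part of the active helicase, measured 65.4 and 31.3, 2.09-fold higher in D16. Its D351 intensity was 1.80 times the floor, the lowest of the measured members, and with the floor at the 60th percentile its log2 ratio was a bound of -0.30 in place of -1.06. At the fork, Pcna measured 639 in D16 and 342 in D351, 1.87-fold higher in D16 and the smallest ratio among the members. Fen1 measured 113 and 48.2, 2.34-fold higher in D16. Between the clones, D16 was the higher one in each of these genes, and Pcna and Mcm2 were the 2 that stayed within 2-fold.

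**Figure D2:**
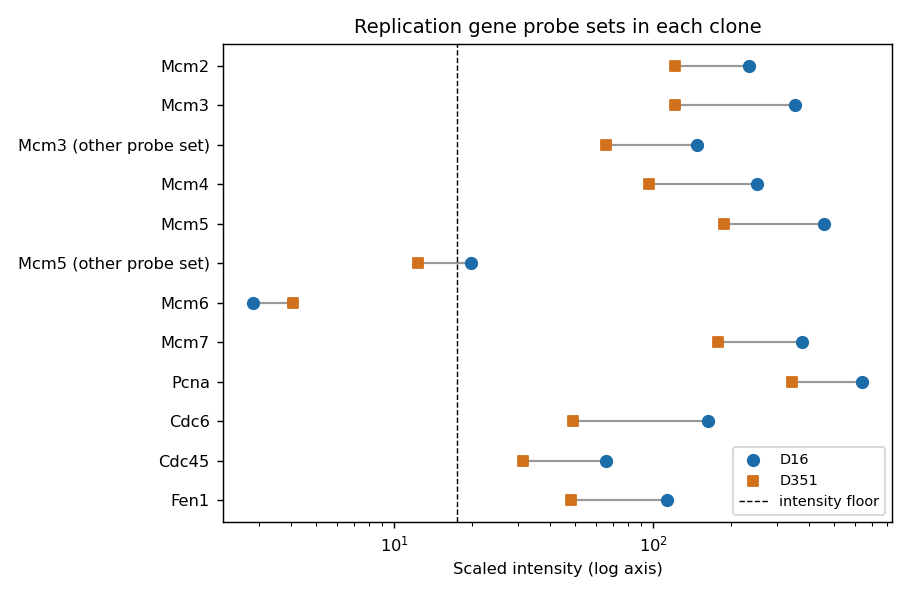
Scaled intensity (log axis) of the 12 probe sets of the replication genes in D16 (blue circles) and D351 (orange squares), with the intensity floor of 17.4 as a dashed line. D16 lies to the right of D351 for every probe set except that of Mcm6, where both points are below the floor.

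All measured members had the same direction, and their promoters were read for sequences of known cell cycle and general promoter elements. RefSeq windows from 250 bases before to 50 after the annotated start (GRCm38.p6) were found for 9 members, all but Mcm4. The E2F element was searched as TTTGGCGC, TTTCCCGC, TTTGCCGC and TTTCGCGC on both strands. It was present in windows of 5 of these 9 genes, namely Mcm3, Mcm5, Mcm6, Mcm7 and Cdc6, and of 2.60% of all 27025 genes with a window. Among measured genes that have a window, 4.91% held it. The stretches below show these matches, 5′ to 3′ on the strand of the gene, with the E2F letters in capitals. For Mcm5 and Mcm6 the stretch lies upstream of the annotated gene, and for the others it covers 30 bases around the match. In Mcm5 and Mcm6, 2 words on opposite strands overlap, so that their capitals form a run of 12 letters.
Mcm3, chr1:20820265-20820294, minus strand: gGCGGGAAAacttgggaagtTTTGGCGCca
Mcm5, chr8:75109336-75109412, plus strand: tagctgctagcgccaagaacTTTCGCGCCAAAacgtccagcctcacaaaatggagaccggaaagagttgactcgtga
Mcm6, chr1:128359706-128359835, minus strand: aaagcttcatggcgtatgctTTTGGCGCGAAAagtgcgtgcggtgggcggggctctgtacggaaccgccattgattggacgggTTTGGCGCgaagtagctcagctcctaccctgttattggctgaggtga
Mcm7, upstream match, chr5:138172030-138172059, minus strand: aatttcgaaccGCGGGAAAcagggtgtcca
Mcm7, downstream match, chr5:138171849-138171878, minus strand: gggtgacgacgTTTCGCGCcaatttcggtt
Cdc6, chr11:98908002-98908031, plus strand: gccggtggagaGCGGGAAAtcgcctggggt

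The position of the matches differed from gene to gene. In Mcm3 they lay 20 and 39 bases after the start, and in Mcm5 they began at -153 and -149. In Mcm6 a pair began at -110 and -106 and a further word at -47. Mcm7 had words at -165 and 17 in the first of its 2 windows and none in the second, and Cdc6 had one at -138. The start sites of the Mcm5, Mcm7 and Cdc6 windows lie inside the annotated span of the gene, so other transcripts of these genes start further upstream, and the Mcm7 and Cdc6 matches lie within that span. The CCAAT box (CCAAT, both strands) was found in 7 of the 9 members, beside 41.1% of all genes with a window and 43.2% of the measured ones. The GC box (GGGCGG, both strands) was found in 6 of 9, beside 38.2% and 68.8%. Fen1 held none of these in either of its windows. A match in these letters is a description of the sequence and not a binding site.

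**Figure D3:**
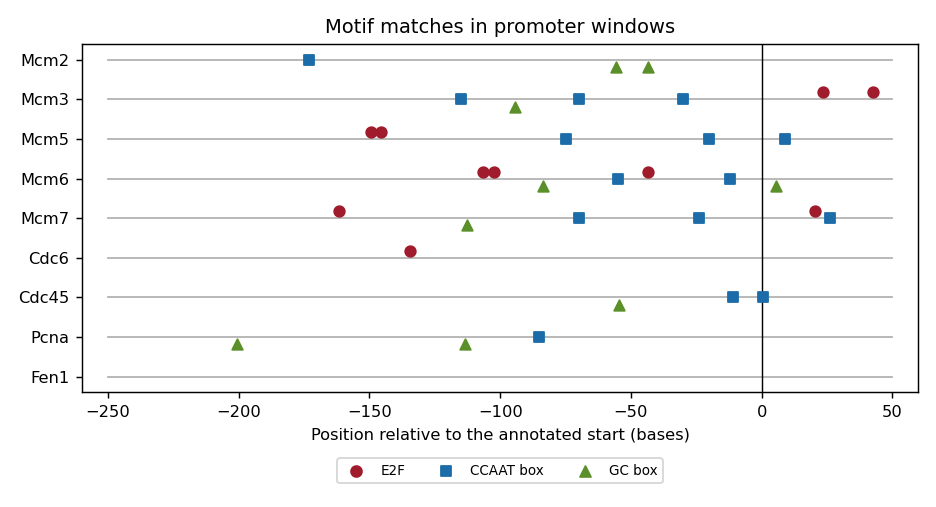
Positions of E2F (red circles), CCAAT box (blue squares) and GC box (green triangles) matches in the RefSeq promoter windows of 9 replication genes, in bases from the annotated start (0), using the first window where a gene has 2. E2F matches occur in 5 genes, and the row of Fen1 is empty.

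Set beside the ratios, the 4 measured members with an E2F match (Mcm3, Mcm5, Mcm7 and Cdc6) had log2 ratios from -1.72 to -1.07, with a median of -1.40. The 4 measured members with a window and no match (Mcm2, Pcna, Cdc45 and Fen1) ran from -1.23 to -0.90, with a median of -1.01. The ranges overlap, and both groups lay below 0. For the other elements the order of the medians was the opposite one. Members with a CCAAT box had a median of -1.06 (6 genes) and those without -1.47 (2 genes), and members with a GC box -1.06 (5 genes) against -1.27 (3 genes). For each element, E2F included, the medians lay closer together than the probe set SD of 0.52, over few genes. Among other replication genes, 12 with a match had a median of -1.11 and 6 of them were called toward D16, against a median of -0.70 and 8 of 27 without. Over all measured genes the difference was small: 12.0% of 241 genes with a match and 8.58% of 4671 without were called toward D16. Their medians were -0.18 and 0.01. These sets include the replication genes: the 29 called genes with a match hold the 4 members and 6 other replication genes above. The difference without them was not computed.

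The rest of the replication machinery was described from lists of named genes, grouped by role. Of 51 further genes on the array, 46 were measured, and their median log2 ratio was -0.80. Toward D16 were called 16 of the 46 (34.8%, beside 8.87% of all genes), toward D351 0, and 40 had a negative ratio. Scaled on the hybridization controls, 7 were called toward D16 (15.2%, beside 4.1% of all genes) and 3 toward D351 (beside 19.9% of all genes). With the floor at the 60th percentile, 5 of the 39 genes left were called toward D16 (12.8%, beside 7.38% of all genes). With a pseudocount of 16 in place of the floor 10 of 46 were (21.7%, beside 6.77%). The other licensing genes had a median of -1.05, with 5 of 9 called toward D16 (55.6%, beside 8.87% of all genes). Orc1, the largest subunit of the origin recognition complex, measured 87.2 in D16 and was below the floor in D351, at least 5.01-fold higher in D16. Gmnn, which encodes the Cdt1 inhibitor geminin, measured 84.7 and 27.7, 3.06-fold higher in D16 with a D351 level 1.59 times the floor. Mcm10, a helicase activation factor, was at least 2.67-fold higher in D16. Cdt1 itself, the target of geminin, was chosen after its values were seen. It measured 350 and 141, 2.48-fold higher in D16, and its second probe set gave 2.34-fold. The other origin recognition subunits on the array, picked with their values in view, differed among themselves. Orc2 was below the floor in D351 and higher in D16 by a bound of at least 2.07-fold, and Orc5 had a log2 ratio of -0.90, whereas Orc4 and Orc6 had 0.10 and -0.05.

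Among origin firing genes other than Cdc45, 2 of 5 measured genes were called toward D16 (40%, beside 8.87% of all genes). Dbf4, Gins2 and Ccne2 were below the floor in both clones. Cdc7, the kinase that phosphorylates the loaded ring, measured 55.7 and 22.9, 2.43-fold higher in D16 with a D351 level 1.32 times the floor. Topbp1, a scaffold needed for helicase activation, measured 97.8 and 40.6, 2.41-fold higher. Of the polymerase and primase genes, 5 of 11 were called toward D16 (45.5%, beside 8.87% of all genes), with a median of -0.95. Pold1, the catalytic subunit of polymerase delta, measured 236 in D16 and 81.9 in D351, 2.88-fold higher in D16. Pole2, a subunit of polymerase epsilon, was below the floor in D351 and measured 47.5 in D16, a bound of at least 2.73-fold. The primase subunit gene Prim2 was 2.36-fold higher in D16. In the opposite direction but within 2-fold were the small subunit genes Pold4 and Pole4, also picked with their values in view, with log2 ratios of 0.69 and 0.68. The second Pole4 probe set had -0.13.

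Among clamp, clamp loader and associated genes besides Pcna, 0 of 7 measured genes passed 2-fold in either direction. The shares over all genes were 8.87% toward D16 and 10.6% toward D351, and with 7 genes a count of 0 lies near them. Of the 7, 6 had a negative ratio and the median was -0.73. Pclaf, a Pcna-associated factor, measured 225 in D16 and 128 in D351, a log2 ratio of -0.82. Chtf8, of the alternative clamp loader used in cohesion, measured 134 and 211, a log2 ratio of 0.65. Among single-strand binding and Okazaki genes other than Fen1, 2 of 8 were called toward D16 (25%, beside 8.87% of all genes). All 8 ratios were negative (median -0.66). Lig1, the ligase that seals the fragments Fen1 has trimmed, measured 200 in D16 and 75.8 in D351, 2.64-fold higher in D16. Rpa2, a subunit of the single-strand binding complex, was at least 2.15-fold higher in D16. Of the topoisomerase and fork protection genes, 2 of 6 were called toward D16 (33.3%, beside 8.87% of all genes). Top2a, the topoisomerase II of dividing cells, measured 278 and 96.7, 2.87-fold higher in D16. Top2b, its paralog that non-dividing cells express too, measured 121 and 124 and was chosen after its values were seen. The fork adaptor gene Wdhd1 was 2.28-fold higher in D16.

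**Figure D4:**
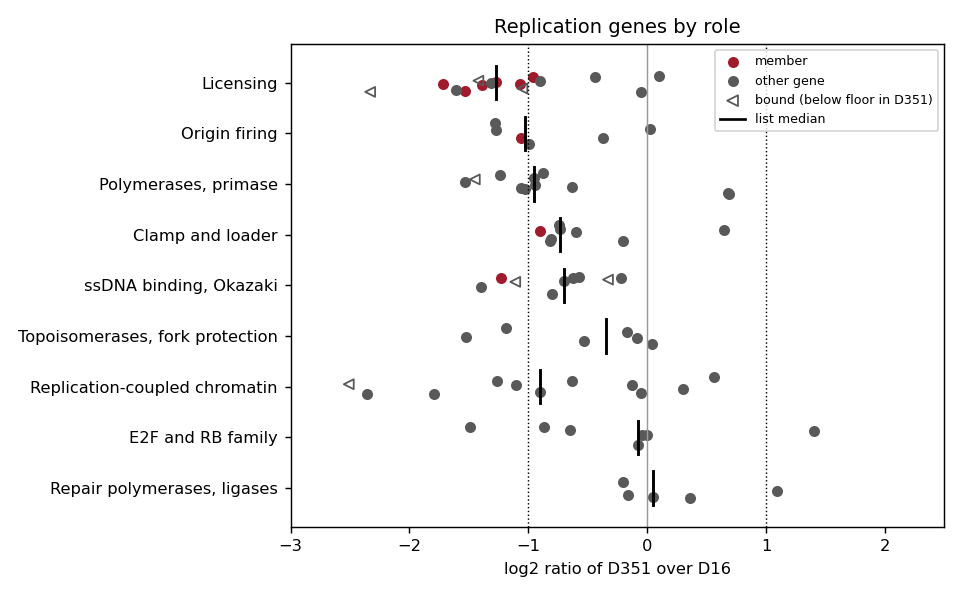
Log2 ratio of D351 over D16 for measured genes of each role (points, spread vertically only to separate them), with members in red, other genes in grey, open triangles for genes below the floor in D351 and a black bar at each list's median. Medians run from -1.27 for licensing to 0.05 for the polymerases and ligases labelled repair, which include Polg. Dotted lines mark 2-fold.

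Genes that rebuild chromatin behind the fork had a median of -0.90. Toward D16 were called 5 of 11 (45.5%, beside 8.87% of all genes), and toward D351 0 (beside 10.6%). The histone chaperone gene Asf1b measured 99.2 in D16 and was below the floor in D351, at least 5.70-fold higher in D16, while its paralog Asf1a, named after its values were seen, measured 231 and 284. Nasp, another histone chaperone gene, measured 97.9 and 19.1, 5.12-fold higher in D16 with a D351 level near the floor. Hells, a chromatin remodeller of the SNF2 family, was 3.47-fold higher in D16 with a D351 level 1.38 times the floor. Among E2F and RB family regulators, 1 of 7 was called in each direction (14.3%), with a median of -0.08. With 7 genes, 1 call each way lies near the shares of all genes, 8.87% toward D16 and 10.6% toward D351. E2f8, a repressor of the family, measured 55.7 and 19.8, 2.81-fold higher in D16 with a D351 level 1.14 times the floor. Its other probe set gave at least 3.31-fold. Rbl2, the p130 pocket protein gene associated with quiescence, measured 20.2 in D16, near the floor, and 53.0 in D351, 2.63-fold higher in D351. E2f1, chosen after its values were seen, gave -0.65 and -0.08 on the log2 scale by its 2 probe sets. DNA polymerases and ligases outside the lists above, Polg among them, had a median of 0.05 over 5 measured genes. Of these, Rev3l, the catalytic subunit of polymerase zeta, was 2.13-fold higher in D351, at 80.8 and 172. It was the 1 call toward D351 (20%, beside 10.6% of all genes), and 0 were called toward D16 (beside 8.87%). With 5 genes, these counts lie near the shares of all genes.

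Markers of the cell types the cultures could hold were read beside these ratios. Of 12 fibroblast genes, listed because of the feeder cells, 7 were called toward D351 (58.3%, beside 10.6% of all genes). Toward D16 was 1 (8.33%, beside 8.87%), and 0 of the 12 were below the floor in both. Their summed intensity was 9076 in D16 and 14395 in D351, a sum set mostly by the brightest probe sets and no measure of cell content. Col5a1 (4.03-fold) and Lum (4.02-fold) were higher in D351 and S100a4 (4.43-fold) in D16. Other probe sets did not bear out each call: Col1a2 had one at a log2 ratio of -0.62 and Col1a1 one at 0.41. Those of Col3a1 (1.25 and 1.55) and Col5a1 (2.92) passed 2-fold toward D351 as well. Most of the 12 fibroblast genes are also expressed by mesenchymal progenitors. Their part in the replication gene ratios was not tested. Of 7 blood cell genes, 4 were below the floor in both clones, among them the leukocyte marker Ptprc, and the summed intensities, with the same limit, were 85.5 and 90.6. Hba-a1, a globin gene, was at least 1.73-fold higher in D16. Cd68, a macrophage gene, was the one at least 2-fold apart, at least 2.12-fold higher in D351. Its second probe set, at 0.59 in D16 and 2.24 in D351, was below the floor in both clones. Of 6 endothelial genes, 4 were below the floor in both, and Flt1 was called toward D351 with a bound of at least 3.80-fold. Of the 7 genes linked with mesoangioblasts that the array holds, Kit and Kdr were below the floor in both clones. Cd34 was called toward D16 (at least 27.3-fold) and Pdgfrb toward D351 (3.62-fold), while Thy1, Acta2 and Pdgfra were measured in both within 2-fold. A second Pdgfra probe set, at 54.5 in D16 and 18.7 in D351, was 2.91-fold higher in D16. As a sign of RNA integrity, the 3′ control probe set over the 5′ one was 1.81 in D16 and 1.37 in D351 for Actb, and 1.56 and 1.44 for Gapdh. Its part in the ratios was not tested.

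The 9 measured members kept their direction under the settings tried. Across the alternative scalings, floors, pseudocount and probe set rules, all 99 values of the 9 measured genes were negative. They ran from -1.77 to -0.18, the latter from the second Mcm5 probe set near the floor. Many of the 99 could not differ from the main value. A lower floor or none left all 9 genes unchanged, and the probe set rules could change only Mcm3 and Mcm5. Mcm6 is not among the 99 values: with no floor, its readings of 2.85 and 4.07 gave a positive log2 ratio of 0.51. The median of all 10 members was then -1.15. The members' counts past 2-fold did depend on the setting, since 7 of 9 log2 ratios lay between -1.39 and -0.90. At 1.5-fold all 9 were higher in D16 (21.0% of all genes), and at 3-fold only Cdc6 was (2.61% of all genes).

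**Figure D5:**
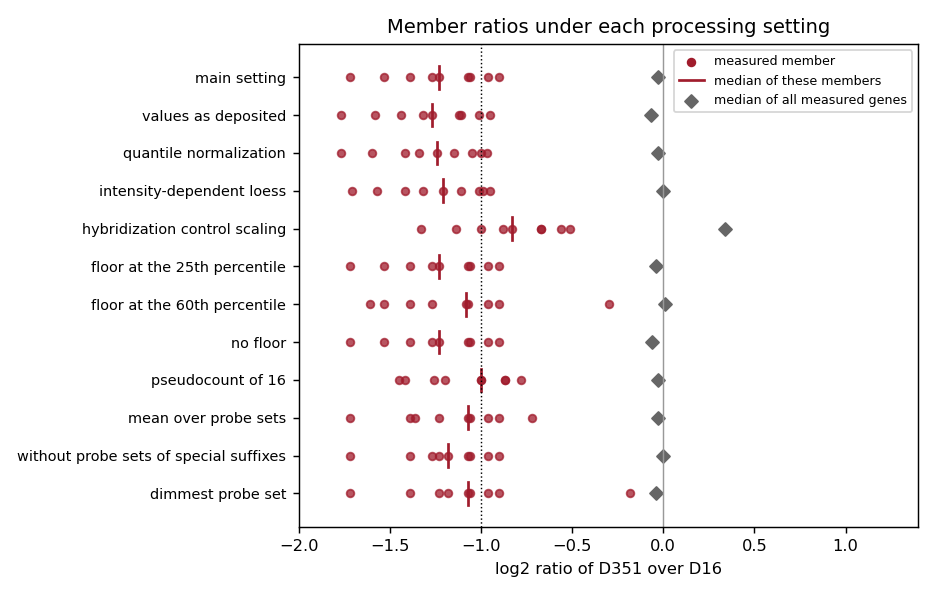
Log2 ratio of D351 over D16 for the 9 measured replication genes (red points) and their median (red bar) under the main setting and 11 alternatives, with the median of all measured genes as a grey diamond. Every red point lies below 0; scaling on the hybridization controls moves points and diamond to the right together.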

How the data were processed

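The authors deposited 1 linear intensity value per probe set and array; their software, background method and scaling are unstated in the labels, and detection calls were not used here. Trimmed means (2% cut from each end) of 100.1 in both arrays were computed from the values. Of 12422 gene probe sets, 10833 had a single symbol in the platform annotation, which was updated by Entrez number to RefSeq of GRCm38.p6; 396 with several and 1193 with none named no gene. Arrays were scaled by 0.983 (D16) and 1.02 (D351) to the same median. Values under the floor of 17.4 were raised to it, so that their log2 ratios are bounds. Each gene was represented by its brightest probe set.

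With 1 array per clone there is no test; the number of arrays limits the precision. Functions were tested on simulated arrays. The members and gene lists were chosen with earlier results of these data known. The genes named were all members, up to 3 genes per list with the largest ratio at 2-fold or more, any at 2-fold or more against the list's majority, or else the 2 brightest; others are marked. Python 3.11.15, numpy 2.4.6, pandas 2.3.3, scipy 1.17.1, statsmodels 0.14.6 and matplotlib 3.10.9 were used. Alternatives covered scaling, floor, a pseudocount of 16, the probe set rule and the fold limit. Promoter sequences are from RefSeq.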

Additional observations from a re-analysis of the deposited data

How the results depend on the processing

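No paired analysis was possible because there is only 1 array for each clone, and no replicate could be left out either. Scaling on the hybridization controls gave 2 members and 7 other replication genes at least 2-fold higher in D16, in place of 7 and 16, with 4.10% of all genes called so. The floor at the 60th percentile gave 5 of 39 other replication genes (12.8%, beside 7.38% of all genes), and a pseudocount of 16 gave 10 of 46 (21.7%, beside 6.77%). At 1.5-fold there were 30 toward D16 (65.2%, beside 21% of all genes) and 3 toward D351 (beside 21.1% of all genes). At 3-fold there were 2 toward D16 (4.35%, beside 2.61% of all genes), next to 1 member. The other counts lay within 1.5 times the main count. Of 99 member values, 96 stayed within the probe set SD, 3 moved by more and 0 reversed. The 3 were Cdc45 with the floor at the 60th percentile (-0.30), and Mcm5 by the mean of its probe sets (-0.72) or by the dimmer one (-0.18). Many of the 99 could not move, as a lower floor or none changed no member and the probe set rules bear only on Mcm3 and Mcm5. The members' median ran from -1.27 with values as deposited to -0.83. The signal of Mcm6, under the floor, and of the second Mcm5 probe set limits what can be said of them.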
